A study of Mus musculus with 12 samples.

Results

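The genes described here are 10 members of the fibrillin, fibulin and elastic-microfibril group of extracellular matrix genes: Fbn1, Fbn2, Mfap2, Mfap4, Mfap5, Eln, Fbln1, Fbln2, Fbln5 and Fbln7. They were taken by gene symbol from a table of 39032 genes, and all 10 symbols were found there. The cells were mouse pre-osteoblasts of the wild-type line MC3T3-E1, subclone 14, and so descend from 1 clone. All cells were held for 5 days in osteogenic medium, that is α-MEM with serum, a form of ascorbic acid and β-glycerophosphate, with the medium and proteins renewed during that time. The BMP2+RSPO2 arm received recombinant BMP2 at 100 ng/ml together with recombinant mouse RSPO2 at 200 ng/ml, the BMP2 arm received BMP2 alone at 100 ng/ml, the RSPO2 arm received RSPO2 alone at 200 ng/ml, and the Control arm received vehicle. BMP2 is a bone morphogenetic protein that drives osteoblast differentiation, and RSPO2 (R-spondin 2) is a secreted protein that strengthens Wnt signalling. Each arm had 3 poly(A) RNA libraries, described as independent biological replicates, and the study asked which genes BMP2 and RSPO2 regulate alone and in combination.

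Fibrillins are long glycoproteins that assemble outside the cell into microfibrils, and small microfibril-associated proteins bind along them. Where elastic fibres form, elastin is laid down on this scaffold with the help of fibulins and is then cross-linked by lysyl oxidases. Microfibrils also hold latent TGF-β and BMP complexes in the matrix, and mouse fibrillin mutants have altered osteoblast behaviour.

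The values are FPKM (fragments per kilobase of transcript, scaled to the mapped reads of the library), which are per length and so can be set side by side between genes. Between 10681 and 11379 genes per library reached 1 FPKM, and 11548 genes that did so in at least 3 libraries were tested with limma on log2(FPKM + 1). A gene was called where its Benjamini-Hochberg adjusted p was under 0.05 in a comparison. The read depth of each library is unknown. The first BMP2+RSPO2 library stood apart, with an FPKM sum of 635139 against 322074 to 380507 in the other 11 libraries and 19.1% of that sum in RNA polymerase III transcripts. The proliferation gene Mki67 read 52.5 to 62.4 FPKM in the first replicate of every arm and 9.34 to 26.9 FPKM in all other libraries. The median log2 change of all tested genes in BMP2+RSPO2 against Control was −0.26 as deposited and −0.03 after median-of-ratios scaling, and that scaling turned a split of 421 higher and 2235 lower genes into 834 higher and 858 lower. Of 8 osteoblast markers, 7 were in the table, and each averaged at least 1 FPKM in every arm; Bglap was not analysed here.

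The 10 members together summed to 42.5 ± 4.91 FPKM in BMP2+RSPO2 and 52.7 ± 1.74 FPKM in BMP2, against 136 ± 12.8 FPKM in RSPO2 and 111 ± 1.45 FPKM in Control (mean ± SD, n = 3 libraries each). The sum was low in both arms that received BMP2, where the highest library had 54.27 FPKM, against 109.59 FPKM in the lowest library without BMP2. The make-up of the sum differed as well. Fbln2 accounted for 74.9% of it in BMP2+RSPO2, 59.4% in BMP2, 37.7% in RSPO2 and 39.5% in Control. The share of the fibrillin Fbn2 was 8% in BMP2+RSPO2, 8.4% in BMP2, 21.9% in RSPO2 and 22.3% in Control, and that of Fbn1 was 2.11%, 2.01%, 13.1% and 8.23% in the same order of arms. A sum of FPKM is led by its highest gene, so the members are also taken singly in what follows. In these bulk libraries, fewer cells that express a gene and less of its RNA per cell cannot be told apart.

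**Figure D1:**
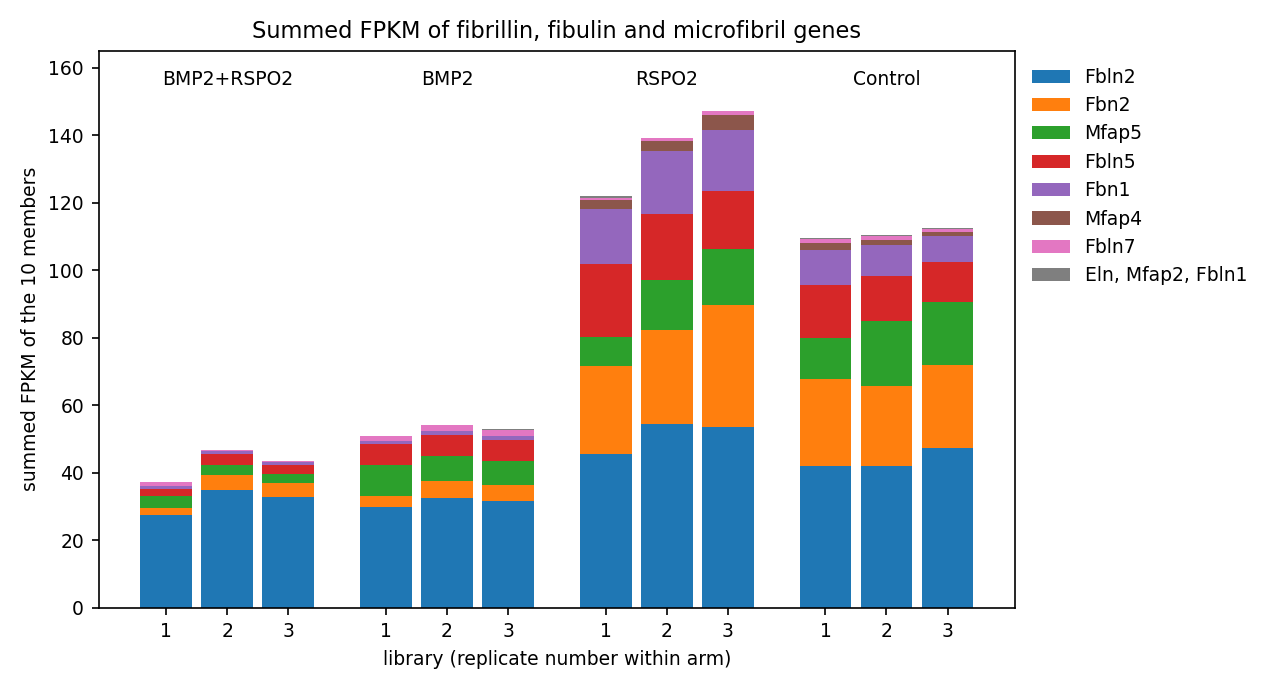
Summed FPKM of the 10 members in each of the 12 libraries (y axis, FPKM; x axis, replicate number within each arm), with each bar divided by gene. The 6 bars of the BMP2+RSPO2 and BMP2 arms end between 37.16 and 54.27 FPKM and consist mostly of Fbln2, whereas the 6 bars of the RSPO2 and Control arms end between 109.59 and 147.09 FPKM.

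By level, Fbln2 was highest in every arm, and its range overlapped that of no other member within an arm. In BMP2+RSPO2 the next places were held by Fbn2, Mfap5 and Fbln5, whose neighbouring ranges overlapped, and then by Fbn1 and Fbln7, which overlapped as well. In BMP2 the order was Mfap5, Fbln5, Fbn2, Fbln7 and Fbn1, without overlap between neighbours. In RSPO2, Fbn2 came next, followed by Fbln5, Fbn1 and Mfap5, which overlapped from neighbour to neighbour, and then by Mfap4 and Fbln7. The Control order was Fbn2, Mfap5 and Fbln5 with overlap, Fbn1, and then Mfap4 and Fbln7 with overlap. Fbn1 thus stood below Fbln7 in BMP2 and above it in RSPO2 and Control. Eln, Mfap2 and Fbln1 stayed under 0.5 FPKM in every library.

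Of the 10 members, 7 passed the filter on low values and were tested. Mfap4 passed only through its RSPO2 and Control libraries, so a call for it where BMP2 was present follows in part from the filter. Fbln7 passed through 7 libraries, none of them in BMP2+RSPO2, so a fall of Fbln7 there also follows in part from the filter. Fbn1 passed through 9 libraries. The members were chosen with earlier results of these data known, so counts of called members are not independent evidence. The deposited table annotates 5 members (Fbn1, Fbn2, Mfap2, Mfap4 and Mfap5) with the Gene Ontology term microfibril, which 8 genes in the table carry. It gives the term elastic fiber to Eln, Mfap4, Fbln1 and Fbln5, and to no other gene. The term for sequestering of TGF-β in the matrix is given to Fbn1 and Fbn2 alone, and 6 members carry calcium ion binding.

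Promoter sequence was available for 6 of the 10 members in the RefSeq table for GRCm38.p6. The 250 bases before the start are shown for the fibrillin and the 3 fibulins whose levels are described next. They were chosen because Fbn1 and Fbln5 fell together in the arms with BMP2, whereas Fbln2 was lower there by less. Fbln7 had its highest mean in BMP2, a rise over Control that was not called. The windows lie at chr2:125506439-125506688 on the minus strand for Fbn1, at chr12:101819120-101819369 and chr12:101818485-101818734, both on the minus strand, for 2 starts of Fbln5, at chr6:91212514-91212763 on the plus strand for Fbln2 and at chr2:128863682-128863931 on the plus strand for Fbln7. They are written 5′ to 3′ along the gene, and capitals mark the motifs that were searched for on both strands. The searched letters were TATAAA for the core promoter box of that name, CAGAC for the SMAD box, GGCGCC for the SMAD element rich in these bases, and CTTTGA for the core bound by TCF and LEF factors. None of these motifs shares letters with another in the windows shown.
Fbn1: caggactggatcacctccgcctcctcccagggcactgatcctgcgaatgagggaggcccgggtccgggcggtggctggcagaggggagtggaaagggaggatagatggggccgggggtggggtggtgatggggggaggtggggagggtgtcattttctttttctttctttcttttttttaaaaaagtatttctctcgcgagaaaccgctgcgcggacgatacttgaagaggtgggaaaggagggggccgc
Fbln5, first start: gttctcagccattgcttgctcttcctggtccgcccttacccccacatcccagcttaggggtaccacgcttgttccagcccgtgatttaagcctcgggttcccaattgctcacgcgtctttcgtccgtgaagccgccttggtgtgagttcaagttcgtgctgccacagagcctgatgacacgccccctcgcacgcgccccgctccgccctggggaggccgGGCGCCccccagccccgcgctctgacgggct
Fbln5, second start: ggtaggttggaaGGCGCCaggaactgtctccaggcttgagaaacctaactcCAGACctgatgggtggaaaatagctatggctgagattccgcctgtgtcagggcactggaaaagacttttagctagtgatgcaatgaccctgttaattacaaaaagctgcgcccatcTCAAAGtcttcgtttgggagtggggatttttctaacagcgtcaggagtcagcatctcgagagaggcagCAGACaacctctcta
Fbln2: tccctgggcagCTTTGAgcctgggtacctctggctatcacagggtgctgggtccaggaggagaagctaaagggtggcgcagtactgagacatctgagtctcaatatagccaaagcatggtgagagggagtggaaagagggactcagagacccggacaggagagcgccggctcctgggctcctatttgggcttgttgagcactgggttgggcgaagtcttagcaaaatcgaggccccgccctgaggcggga
Fbln7: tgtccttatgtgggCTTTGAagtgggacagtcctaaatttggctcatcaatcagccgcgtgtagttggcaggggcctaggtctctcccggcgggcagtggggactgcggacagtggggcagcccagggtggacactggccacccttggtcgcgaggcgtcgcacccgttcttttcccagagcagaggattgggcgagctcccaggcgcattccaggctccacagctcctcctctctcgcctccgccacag
The first transcribed bases after the Fbn1, Fbln2 and Fbln7 starts were found letter for letter in a GENCODE transcript of the gene, and those after both Fbln5 starts were not, so the Fbln5 windows rest on RefSeq alone. The Fbn1 window held none of the 4 motifs and had a GC content of 59.2%, against a median of 52.4% over 32851 windows of the same length. At the first Fbln5 start, GGCGCC lay 31 bases before the start. The second Fbln5 window held CAGAC at 199 and 15 bases before the start, GGCGCC at 238 bases and TCAAAG, the reverse complement of CTTTGA, at 83 bases. CTTTGA stood 239 bases before the start of Fbln2 and 236 bases before that of Fbln7. Of the members with windows that are not shown, Fbln1, at 0 in all 12 libraries, held 2 SMAD boxes in each window. Mfap2 held 1 SMAD box, in only 1 of its windows. Over all windows, TATAAA was found in 12.4%, CAGAC in 42.2%, GGCGCC in 9.59% and CTTTGA in 13.8%. A match describes letters only and was not tied to binding or to the levels of any gene.

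The fibrillins, which form the backbone of microfibrils, were low wherever BMP2 was present. Fbn1, mutated in human Marfan syndrome, read 1.17, 0.75 and 0.68 FPKM in BMP2+RSPO2, 0.94, 1.12 and 1.12 FPKM in BMP2, 16.5, 18.7 and 18.1 FPKM in RSPO2, and 10.5, 9.18 and 7.66 FPKM in Control. Every library with BMP2 lay below every library without it, and every RSPO2 library lay above every Control library. Over all tested genes, BMP2 and Control did not overlap for 20.8%, and RSPO2 and Control for 9.33%, in either direction. Shares for other groupings of the libraries are not given, here or for the members that follow. The Fbn1 mean was 10.5-fold lower in BMP2+RSPO2 and 8.59-fold lower in BMP2 than in Control, and 1.95-fold higher in RSPO2 than in Control. Fbn2, the fibrillin most abundant in developing tissues, read 1.94, 4.46 and 4.02 FPKM in BMP2+RSPO2, 3.34, 5.11 and 4.88 FPKM in BMP2, 26.0, 27.7 and 36.1 FPKM in RSPO2, and 25.7, 23.7 and 24.8 FPKM in Control. Its libraries with BMP2 were again all below those without. The RSPO2 libraries were above the Control libraries only narrowly, since the lowest RSPO2 value exceeded the highest Control value by less than 1 FPKM. The mean was 7.13-fold lower in BMP2+RSPO2 and 5.57-fold lower in BMP2 than in Control. The ratio of Fbn2 to Fbn1 was 1.66, 5.95 and 5.91 in BMP2+RSPO2, 3.55, 4.56 and 4.36 in BMP2, 1.57, 1.48 and 2 in RSPO2, and 2.46, 2.58 and 3.24 in Control. The BMP2 ratios lay above all Control ratios and the RSPO2 ratios below them, whereas the BMP2+RSPO2 ratios spanned the Control range, with the low one from the library that stood apart.

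The small microfibril-associated glycoproteins bind fibrillin, and Mfap5 was the most abundant of those measured. Its values were 3.67, 3.12 and 2.59 FPKM in BMP2+RSPO2, 9.27, 7.20 and 7.15 FPKM in BMP2, 8.44, 14.9 and 16.7 FPKM in RSPO2, and 12.0, 19.3 and 18.6 FPKM in Control. The BMP2+RSPO2 libraries were the lowest 3 of the 12, and RSPO2 and Control overlapped. In RSPO2 and in Control the first replicate was the low one, and in BMP2+RSPO2 and BMP2 it was the high one; these are the libraries with high Mki67, whose part in these values was not tested. Mfap4, a glycoprotein with a fibrinogen-related domain that is found on elastic fibres, was listed at 0 in all 3 BMP2+RSPO2 libraries and at 0, 0.1 and 0 FPKM in BMP2. It read 2.39, 2.95 and 4.36 FPKM in RSPO2 and 2.08, 1.51 and 1.08 FPKM in Control. It was thus near or at 0 with BMP2, and every RSPO2 library exceeded every Control library. Mfap2, a close relative of Mfap5, was listed at 0 in 7 of the 12 libraries, and its highest value was 0.49 FPKM, in the first RSPO2 library.

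Elastin itself was barely present. Eln was listed at 0 in all 3 BMP2+RSPO2 libraries and read 0, 0.02 and 0.04 FPKM in BMP2, 0.07, 0.21 and 0.07 FPKM in RSPO2, and 0.11, 0.16 and 0.12 FPKM in Control. The libraries with BMP2 were all below those without it, but at these levels Eln did not pass the filter and was not tested.

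Of the fibulins, matrix proteins that bridge elastin, microfibrils and cells, Fbln2 was the most abundant, with arm means from 31.3 to 51.3 FPKM. It read 27.6, 34.8 and 32.9 FPKM in BMP2+RSPO2, 29.8, 32.6 and 31.6 FPKM in BMP2, 45.7, 54.6 and 53.5 FPKM in RSPO2, and 42.1, 42.0 and 47.3 FPKM in Control. All libraries with BMP2 were below all libraries without it, while RSPO2 and Control overlapped. Fbln5, which binds elastin and integrins and is needed for elastic fibre assembly in mice, read 1.82, 3.22 and 2.87 FPKM in BMP2+RSPO2, 6.14, 6.31 and 6.21 FPKM in BMP2, 21.7, 19.5 and 17.2 FPKM in RSPO2, and 15.7, 13.2 and 11.7 FPKM in Control. Its 4 arms did not overlap anywhere, with BMP2+RSPO2 lowest, then BMP2, then Control, and RSPO2 highest. The share of all tested genes with such a separation of 4 arms is not given here. Fbln7, a fibulin involved in cell adhesion, had another pattern. It read 0.93, 0.48 and 0.27 FPKM in BMP2+RSPO2, 1.36, 1.85 and 1.86 FPKM in BMP2, 0.8, 0.79 and 1 FPKM in RSPO2, and 1.12, 1.34 and 1.1 FPKM in Control. BMP2 libraries were above all others, but the lowest of them exceeded the highest Control library only narrowly, at 1.36 against 1.34 FPKM. After median-of-ratios scaling these values were 1.27 and 1.29, so the 2 arms overlapped. BMP2+RSPO2 libraries overlapped only with RSPO2 as deposited. Fbln1 was listed at 0 in all 12 libraries.

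**Figure D2:**
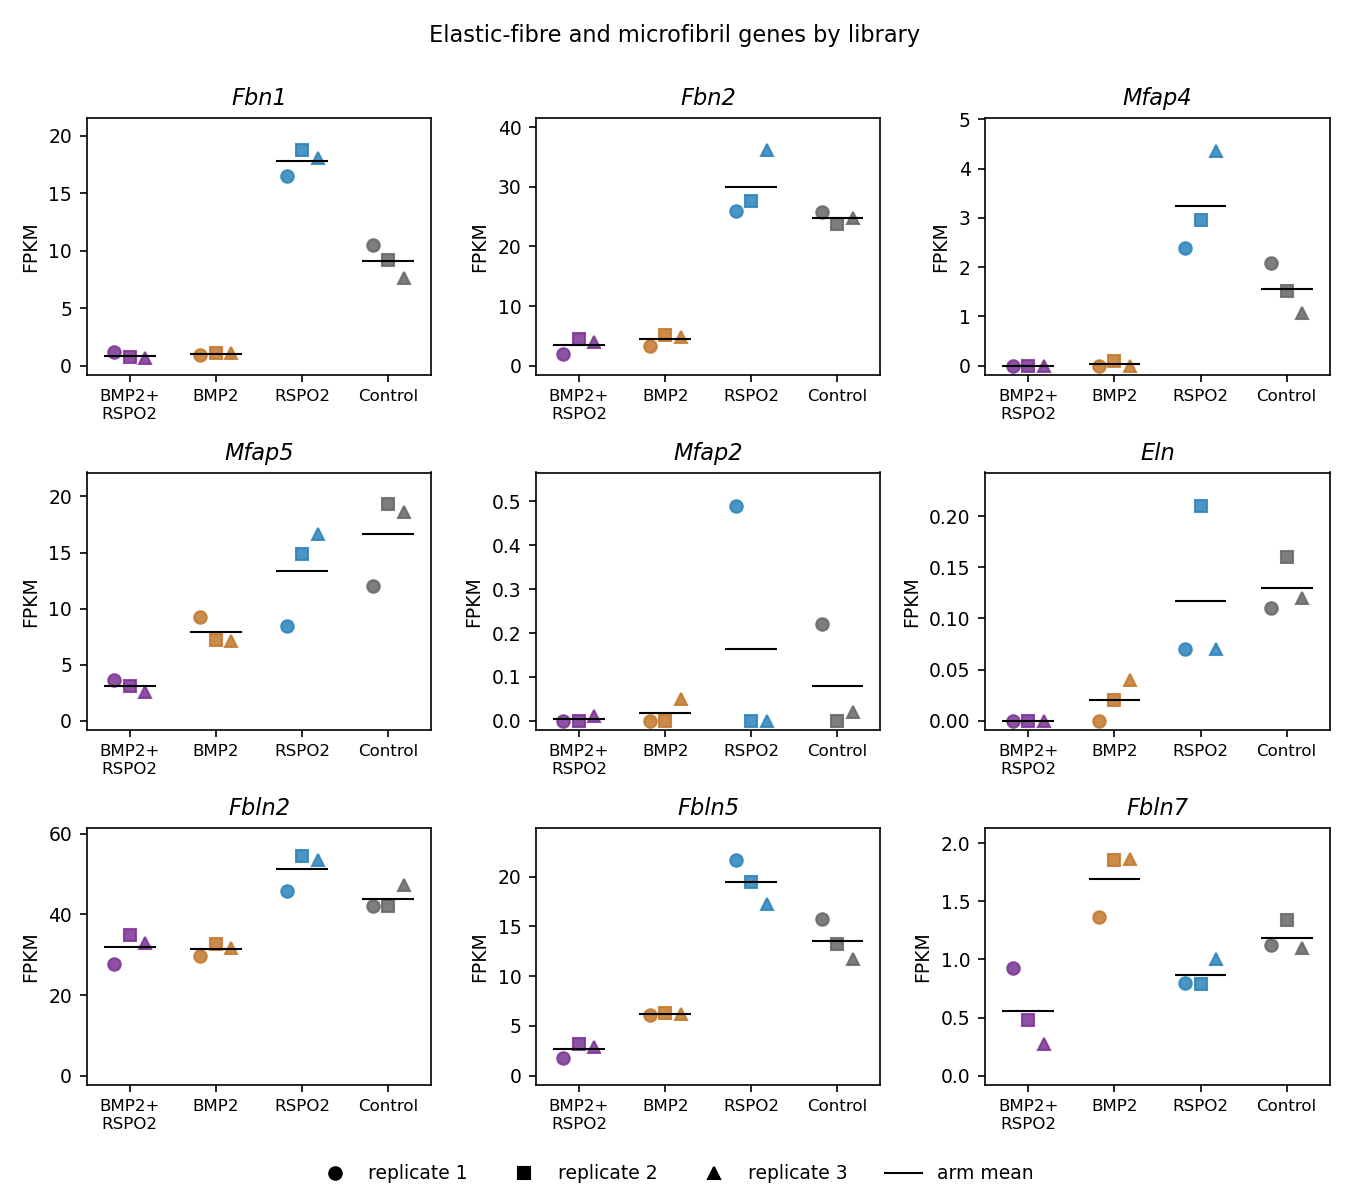
FPKM of 9 members (y axes, FPKM, each with its own scale) in the libraries of the 4 arms, with 1 point per library, its shape giving the replicate number, and a line at the arm mean; Fbln1, at 0 in all 12 libraries, is not drawn. Fbn1, Fbn2, Mfap4 and Fbln5 sit low in both arms with BMP2, Fbln2 falls less, and Fbln7 has its highest mean in BMP2.

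BMP2+RSPO2 against Control asked what both proteins together did. Of the 7 tested members, 6 fell and none rose, against 19.4% of all tested genes lower and 23% called in either direction in this comparison. A replicate block, a term for the shared replicate numbers in the fit, left the same 6 members called. With it limma called 3897 of all tested genes in place of 2656, and 3277 of these were lower in place of 2235. On the log2(FPKM + 1) scale the changes of the fibrillins were −2.58 for Fbn2 (SE 0.23, limma adjusted p = 9.74e-05) and −2.44 for Fbn1 (SE 0.137, adjusted p = 8.28e-06), which ranked 22 and 29 from the lowest of 11548 genes. The order of the members depends on the pseudocount: with 0.1 in place of 1 the changes were −2.88 for Fbn2, −3.27 for Fbn1 and −4.01 for Mfap4. Mfap5 fell by 2.08 on the log2 scale (SE 0.247, adjusted p = 0.000498), and Fbln5 fell by 2.01 (SE 0.161, adjusted p = 4.41e-05). Relative to the median of all genes the changes of these members were −2.32 for Fbn2, −2.18 for Fbn1, −1.82 for Mfap5 and −1.76 for Fbln5. Mfap4, at 0 in all BMP2+RSPO2 libraries, fell by 1.34 (adjusted p = 0.00148). It is among the 6 but passed the filter only through arms without BMP2. Fbln2 fell by 0.45 (adjusted p = 0.0182), while Fbln7 missed the threshold at −0.51 (adjusted p = 0.0541). Under median-of-ratios scaling Fbln2 was no longer called, at −0.18 (adjusted p = 0.361), and it was also lost without Control replicate 3 (adjusted p = 0.07). Fbln7 was called without the first BMP2+RSPO2 library, which stood apart (adjusted p = 0.00874).

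BMP2 against Control asked for the action of BMP2 alone, and 4 of the 7 tested members fell while none rose, against 1% of all tested genes lower and 1.52% called in either direction. Fbn1 fell by 2.29 on the log2 scale (SE 0.137, limma adjusted p = 3.95e-05), the second smallest p of all genes, and the log2 change of Fbn2 was −2.26 (SE 0.23, adjusted p = 0.00113). They ranked 15 and 16 from the lowest of 11548 genes by change on this scale, and both were called whichever of the 12 libraries was left out. Fbln5 fell by 1 (SE 0.161, adjusted p = 0.0131) and Mfap4 by 1.29 (adjusted p = 0.00933), a value that was −3.67 with the lower pseudocount. Mfap4 is among the 4 but passed the filter only through arms without BMP2. Mfap5 at −0.97 (adjusted p = 0.108), Fbln2 at −0.47 (adjusted p = 0.09) and Fbln7 at 0.30 (adjusted p = 0.686) were not called, although the BMP2 and Control libraries of each of these genes did not overlap, which held for 20.8% of all tested genes. Fbln5 was lost without BMP2 replicate 2 or 3 or Control replicate 1 or 2 (adjusted p up to 0.0626), and Mfap4 without BMP2 replicate 3 or Control replicate 1 (up to 0.0514). With replicates 2 and 3 of each arm alone, Mfap5 was called at −1.29 (adjusted p = 0.0011), as was Fbln2 at −0.46 (adjusted p = 0.0176). The fit with a replicate block also called Fbln2 (adjusted p = 0.0262).

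RSPO2 against Control asked for the action of RSPO2 alone, and limma called none of the 7 tested members, against 0.0779% of all tested genes. With a replicate block limma called 1 of the 7, Fbn1 (adjusted p = 0.0468), and 26 of all tested genes in place of 9. At an unadjusted p under 0.05 without the block there were 3 members, against 3.62% of all tested genes, all higher with RSPO2: Fbn1 (log2 change 0.90, SE 0.137, adjusted p = 0.0581), Mfap4 (0.72, adjusted p = 0.567) and Fbln5 (0.50, adjusted p = 0.811). Fbn1 had the tenth smallest p of all genes, and its interval of 0.60 to 1.21 (95%) did not include 0. Non-overlapping libraries were found for Fbn1, Fbn2, Mfap4 and Fbln5, all above Control, and for Fbln7, below Control, against 9.33% of all tested genes. The Fbn1 call turned on the fit: its adjusted p was 0.0254 without the first BMP2+RSPO2 library and 0.00963 with replicates 2 and 3 of each arm alone.

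BMP2+RSPO2 against BMP2 asked what RSPO2 added where BMP2 was present, and here 3 of the 7 tested members fell and none rose, against 3.74% of all tested genes lower and 4.38% called in either direction. These were Mfap5 (log2 change −1.10, SE 0.247, limma adjusted p = 0.038), Fbln5 (−1.01, SE 0.161, adjusted p = 0.0129) and Fbln7 (−0.80, SE 0.17, adjusted p = 0.0322, and −1.55 with the lower pseudocount), whose means were 2.52-fold, 2.36-fold and 3.02-fold lower in BMP2+RSPO2. With a replicate block the same 3 members were called, and 1710 of all tested genes in place of 506. Fbln7, among the 3, passed the filter through no BMP2+RSPO2 library, so its call follows in part from the filter. The fibrillins were not called. The interval of the difference was −0.45 to 0.15 for Fbn1 and −0.83 to 0.19 for Fbn2 (95%), and that of Fbln2 was −0.24 to 0.27. Under median-of-ratios scaling Fbln5 kept its call (−0.85, adjusted p = 0.014), whereas Mfap5 (adjusted p = 0.0978) and Fbln7 (adjusted p = 0.0783) did not. Leaving out single libraries lost Mfap5 in 8 of 12 fits (adjusted p up to 0.113), all but those without replicate 1 of BMP2+RSPO2 or Control or RSPO2 replicate 1 or 3, lost Fbln7 in 7 (up to 0.117), the same ones except that without BMP2 replicate 1, and lost Fbln5 in 2, those without BMP2 replicate 2 or 3 (up to 0.0661).

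BMP2+RSPO2 against RSPO2 asked the same of BMP2 where RSPO2 was present. All tested members except Fbln7 fell, which made 6 of 7, against 21.8% of all tested genes lower and 26.1% called in either direction. Mfap4, among the 6, passed the filter only through arms without BMP2. Fbn1 fell by 3.34 on the log2 scale (SE 0.137, limma adjusted p = 5.7e-07), with a mean 20.5-fold lower, and it ranked 13 from the lowest of all tested genes. The log2 changes of the others were −2.83 for Fbn2 (adjusted p = 2.97e-05), −2.51 for Fbln5 (adjusted p = 7.57e-06), −2.06 for Mfap4 (adjusted p = 7.56e-05, and −5.02 with the lower pseudocount), −1.75 for Mfap5 (adjusted p = 0.000804) and −0.68 for Fbln2 (adjusted p = 0.00235). Fbln7 stood at −0.28 (adjusted p = 0.248). Under median-of-ratios scaling Fbln2 lost its call, at −0.39 (adjusted p = 0.0598). These comparisons share arms with each other, so their values stand side by side and are not independent of one another.

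**Figure D3:**
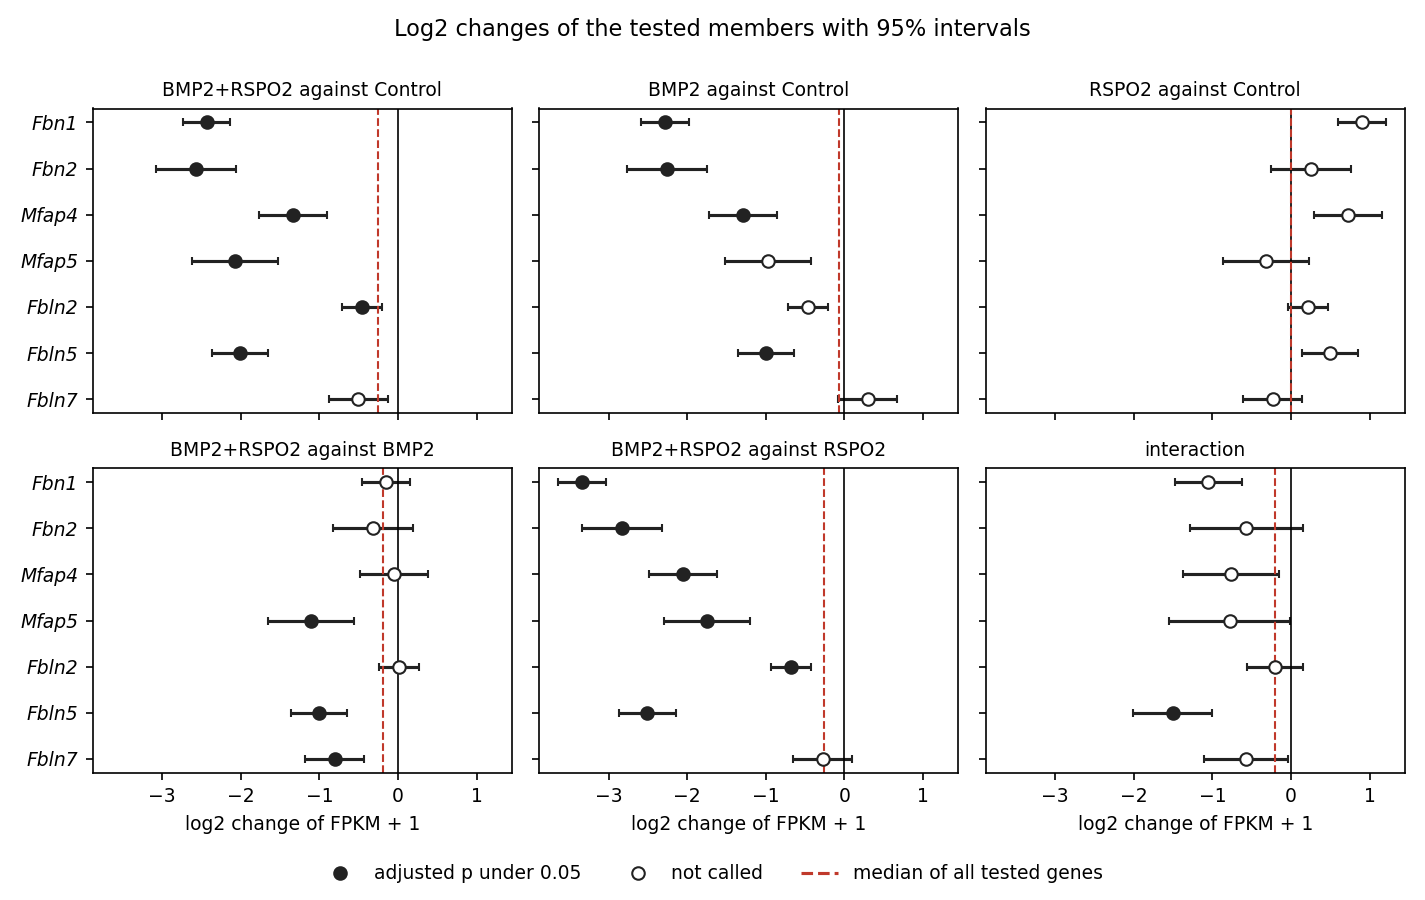
Log2 change of FPKM + 1 (x axes) of the 7 tested members in the 5 comparisons of arms and in the interaction, the RSPO2 change with BMP2 minus the RSPO2 change without it; bars are 95% intervals, filled points have an adjusted p under 0.05, and the dashed line is the median of all 11548 tested genes. Fbn1 and Fbn2 lie between −2.26 and −3.34 in the 3 comparisons that contrast BMP2 with its absence and at −0.15 and −0.32 in BMP2+RSPO2 against BMP2.

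The interaction compared the change with RSPO2 in the presence of BMP2 with the change with RSPO2 in its absence. Fbln5 was the 1 member called, among 7 tested and against 0.286% of all tested genes lower and 0.294% called in either direction, with an interaction of −1.51 on the log2 scale (SE 0.228, limma adjusted p = 0.0308). Its mean was 2.36-fold lower in BMP2+RSPO2 than in BMP2 and 1.44-fold higher in RSPO2 than in Control, with no overlap of libraries on either side. RSPO2 and Control libraries did not overlap for 9.33% of all tested genes. That share for BMP2+RSPO2 and BMP2 is not given here. Fbn1 had an interaction of −1.05 (SE 0.194, adjusted p = 0.0599), which missed the threshold. Its RSPO2 change was −0.15 with BMP2 and 0.90 without it. With BMP2, Fbn1 read 0.68 to 1.17 FPKM and Mfap4 was at or near 0, levels at which log2(FPKM + 1) can fall little. The other 5 interactions lay between −0.78 for Mfap5 and −0.20 for Fbln2, with adjusted p of 0.295 or more. The median interaction of all tested genes was −0.205, so a value below 0 was common. Fbln5 was lost in 8 of the 12 fits that left out 1 library, those without BMP2+RSPO2 replicate 3, BMP2 replicate 2 or 3, any RSPO2 replicate or Control replicate 2 or 3 (adjusted p up to 0.13), and under median-of-ratios scaling (−1.33, adjusted p = 0.0541). Fbn1 was called without the first BMP2+RSPO2 or the first Control library (adjusted p down to 0.0176).

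**Figure D4:**
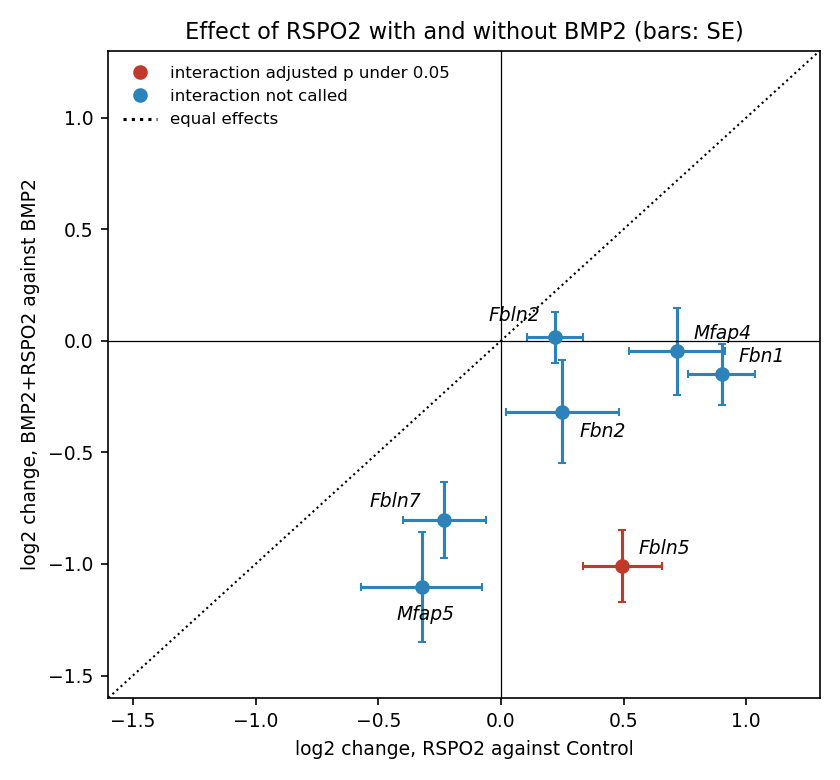
Log2 change of FPKM + 1 with RSPO2 in the presence of BMP2 (y axis, BMP2+RSPO2 against BMP2) and in its absence (x axis, RSPO2 against Control) for the 7 tested members; bars are standard errors and the dotted line marks equal changes. All 7 points lie below the line, as does the median interaction of all tested genes (−0.205). Fbln5, at −1.01 with BMP2 and 0.50 without it, is the called one.

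Markers of smooth muscle, a cell type that makes elastic fibres, fell in the same comparisons. Of 6 listed, 4 were tested, and all 4 fell in BMP2+RSPO2 against Control and in BMP2+RSPO2 against RSPO2, 2 fell in BMP2 against Control and 3 fell in BMP2+RSPO2 against BMP2. In the interaction all 4 lay below 0 with an unadjusted p under 0.05, against 13% of all tested genes in either direction, and Acta2 was called (−1.22 on the log2 scale, limma adjusted p = 0.0308), as Fbln5 was. The shares of all tested genes called in these comparisons are those given with the members. The summed level of the 6 markers was 369 to 380 FPKM in BMP2+RSPO2 and 827 to 903 FPKM in BMP2, against 1308 to 1839 FPKM in RSPO2 and 1421 to 1774 FPKM in Control, most of it Acta2 and Tagln, genes of contractile stress fibres that many cultured cells express. The defining markers Cnn1 and Myh11 were at or near 0 throughout, at no more than 0.09 and 0.11 FPKM in any library. In the osteoblast list, 6 of the 7 tested genes rose in BMP2+RSPO2 against Control, 2 rose in BMP2 against Control and 6 rose in BMP2+RSPO2 against RSPO2. Its summed level was 16384 to 29181 FPKM in BMP2+RSPO2 and 13006 to 22051 FPKM in BMP2, against 6695 to 10431 FPKM in RSPO2 and 7211 to 12136 FPKM in Control. In the interaction limma called none of these 7 osteoblast genes. The unadjusted p was under 0.05 for 4 of them, all above 0: Ibsp (1.557 on the log2 scale), Sp7 (0.955), Alpl (0.831) and Runx2 (0.508). Tendon fibroblast markers, of which 3 of 4 were in the table, summed to 18.8 to 21.7 FPKM in BMP2+RSPO2, 20.7 to 30.9 FPKM in BMP2, 29.7 to 45.0 FPKM in RSPO2 and 27.3 to 30.9 FPKM in Control. Of the 2 tested, Mkx fell in BMP2+RSPO2 against Control (−0.62, limma adjusted p = 0.0403), and both Mkx and Scx fell in BMP2+RSPO2 against RSPO2 (adjusted p = 0.0116 and 0.014). Chondrocyte markers summed to 13.9 to 22.1 FPKM in BMP2+RSPO2, 23.4 to 45.2 FPKM in BMP2, 4.37 to 4.76 FPKM in RSPO2 and 7.8 to 12.9 FPKM in Control, with Acan and Col9a1 at 0 in all libraries. Of the 3 tested, Col2a1 rose in each comparison of an arm with BMP2 against an arm without it, Sox9 rose in BMP2+RSPO2 against RSPO2 and Matn3 fell in BMP2+RSPO2 against BMP2. Endothelial, macrophage and adipocyte markers summed to no more than 5.49, 4.35 and 0.39 FPKM in any library. The part of these lists in the members' changes was not tested.

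The genes that build, cross-link, bind and use elastic fibres alongside the members were counted in 8 lists of 51 genes, of which 35 were tested. In BMP2+RSPO2 against Control, 3 of the 35 rose and 6 fell, near the 23% of all tested genes called, with a median log2 change of −0.10 against −0.26 for all tested genes. In BMP2 against Control 1 fell and none rose, against 1.52% of all genes called, with a median of −0.07 against −0.06. In RSPO2 against Control limma called none of the 35, of which 2 had an unadjusted p under 0.05, against 3.62% of all genes, with a median of 0.06 against 0.01. In the interaction it also called none, with 5 of the 35 at an unadjusted p under 0.05, near the 13% of all genes, and a median of −0.15 against −0.21. In BMP2+RSPO2 against BMP2, 1 fell, against 4.38% of all genes called, with a median of −0.10 against −0.19. In BMP2+RSPO2 against RSPO2, 4 rose and 6 fell, near the 26.1% of all genes called, with a median of −0.22 against −0.26. With a replicate block the partners called were 12 in BMP2+RSPO2 against Control, 3 in BMP2 against Control, 4 in BMP2+RSPO2 against BMP2 and 16 in BMP2+RSPO2 against RSPO2. The genes named next are all those called without the block.

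Among the receptors, the integrin chain Itga8, which pairs with β1 to bind RGD-containing matrix proteins, had the largest change of the called partners in BMP2+RSPO2 against Control. It averaged 0.453 ± 0.171 FPKM in BMP2+RSPO2 and 1.38 ± 0.473 FPKM in BMP2, against 9.33 ± 0.848 FPKM in RSPO2 and 6.32 ± 1.77 FPKM in Control (SD, n = 3 each). It fell by 2.31 on the log2 scale in BMP2+RSPO2 against Control (limma adjusted p = 7.07e-05) and by 1.61 in BMP2 against Control (adjusted p = 0.00255). Both calls held in all 12 fits without 1 library and under both scalings. Itga9, another integrin chain, fell by 0.64 in BMP2+RSPO2 against Control (adjusted p = 0.0412), but the call was lost under both scalings and in 9 of those fits, all but the ones without BMP2 replicate 1 or 2 or RSPO2 replicate 1. In BMP2+RSPO2 against RSPO2 its change was −0.756 (adjusted p = 0.0192), a call lost under both scalings and without RSPO2 replicate 2. Itgb5, the partner of the αv chain in a vitronectin receptor, was called in BMP2+RSPO2 against RSPO2, where it fell by 0.89 (adjusted p = 0.0282). That call was lost under both scalings and without BMP2+RSPO2 replicate 1 or RSPO2 replicate 2 or 3.

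Of the 3 TGF-β ligands, which microfibrils store in latent form, Tgfb1 rose and Tgfb3 fell. Tgfb1 averaged 54.4 ± 8.89 FPKM in BMP2+RSPO2 and 41.3 ± 4.79 FPKM in BMP2, against 19.0 ± 5.46 FPKM in RSPO2 and 24.6 ± 7.01 FPKM in Control (SD, n = 3 each). It rose by 1.14 on the log2 scale in BMP2+RSPO2 against Control (limma adjusted p = 0.0105). Tgfb3 averaged 16.0 ± 3.82 FPKM in BMP2+RSPO2 and 17.1 ± 1.87 FPKM in BMP2, against 36.9 ± 5.16 FPKM in RSPO2 and 28.7 ± 3.48 FPKM in Control. It fell by 0.83 in BMP2+RSPO2 against Control (adjusted p = 0.0101), a call that both scalings lost (adjusted p = 0.0761 and 0.088). In BMP2+RSPO2 against RSPO2 the change of Tgfb3 was −1.175 (adjusted p = 0.00144). That call held in all 12 fits without 1 library and under both scalings. Pcsk6, a proprotein convertase of the furin family, rose by 1.34 in BMP2+RSPO2 against Control (adjusted p = 0.00292). It averaged 36.6 ± 11.5 FPKM in BMP2+RSPO2 and 13.4 ± 1.47 FPKM in Control. Limma called none of the 3 tested latent TGF-β binding genes, Ltbp1, Ltbp3 and Ltbp4, in any of the 6 comparisons, and Ltbp1 had an unadjusted p under 0.05 in BMP2+RSPO2 against Control, BMP2 and RSPO2, as did 38.5%, 25.5% and 39.9% of all tested genes.

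The lysyl oxidases, which cross-link elastin and collagen, were also divided. Lox averaged 299 ± 18.8 FPKM in BMP2+RSPO2 and 243 ± 15.7 FPKM in BMP2, against 168 ± 37.4 FPKM in RSPO2 and 188 ± 34.6 FPKM in Control (SD, n = 3 each). It rose by 0.69 on the log2 scale in BMP2+RSPO2 against Control (limma adjusted p = 0.021), a call lost without the second BMP2+RSPO2 or the first Control library (adjusted p up to 0.0783). In BMP2+RSPO2 against RSPO2 Lox rose by 0.85 (adjusted p = 0.00718), which held in all 12 fits without 1 library and under both scalings. Loxl1, which acts with fibulin 5 on elastin in mice, averaged 2.23 ± 1.38 FPKM in BMP2+RSPO2 and 4.10 ± 0.966 FPKM in BMP2, against 9.22 ± 0.952 FPKM in RSPO2 and 5.02 ± 0.407 FPKM in Control. Its low end was the first BMP2+RSPO2 library, the one that stood apart, at 0.65 FPKM. Loxl1 fell by 1.01 in BMP2+RSPO2 against Control (adjusted p = 0.0343), which was lost under both scalings and without BMP2 replicate 2 or any of the Control libraries, and by 1.77 in BMP2+RSPO2 against RSPO2 (adjusted p = 0.0023), which held in all 12 fits without 1 library and under both scalings. Loxl4 rose in BMP2+RSPO2 against RSPO2, by 1.85 (adjusted p = 0.0272), and was lost without BMP2+RSPO2 replicate 2 or 3 or RSPO2 replicate 1 or 2. It read 24.7, 130 and 110 FPKM in BMP2+RSPO2, against 14.6, 18.2 and 25.8 FPKM in RSPO2, and without the first BMP2+RSPO2 library, the one that stood apart, the change was 2.59 (adjusted p = 0.000363).

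Among the ADAMTS-like proteins, several of which bind fibrillin 1, Adamtsl4 averaged 3.29 ± 0.352 FPKM in BMP2+RSPO2 and 6.63 ± 0.59 FPKM in BMP2, against 8.08 ± 1.91 FPKM in RSPO2 and 7.97 ± 1.88 FPKM in Control (SD, n = 3 each). It fell by 1.04 on the log2 scale in BMP2+RSPO2 against Control (limma adjusted p = 0.00441) and by 0.83 in BMP2+RSPO2 against BMP2 (adjusted p = 0.0411). The first call held in all 12 fits without 1 library, and the other was lost under both scalings and in 9 of the fits, all but those without replicate 1 of BMP2+RSPO2, RSPO2 or Control. Adamtsl3 fell by 1.05 in BMP2+RSPO2 against Control (adjusted p = 0.0248), a call lost under both scalings and without BMP2+RSPO2 replicate 2 or 3 or any of the Control libraries.

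**Figure D5:**
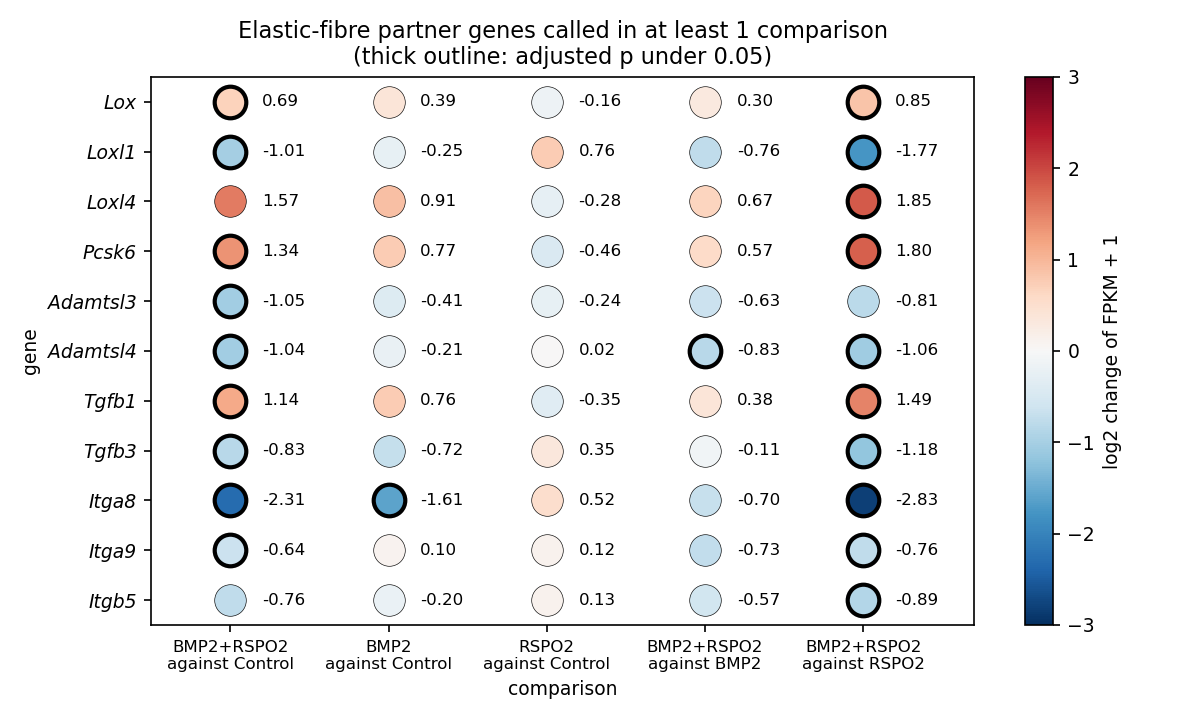
Log2 change of FPKM + 1 (colour scale and printed values) of the 11 partner genes called in at least 1 comparison (rows), in the 5 comparisons of arms (columns); a thick outline marks an adjusted p under 0.05. Pcsk6, Tgfb1, Lox and Loxl4 are higher and the other 7 genes lower where the BMP2+RSPO2 arm is set against RSPO2.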

How the data were processed

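RNA sequencing of 12 MC3T3-E1 libraries, 3 in each of 4 arms, was analysed from 1 table of FPKM values that the authors deposited. Per the submitters' processing notes, the tools were cutadapt 1.10, FastQC 0.10.1, HISAT2 2.0, StringTie 1.3.4 and edgeR, with GRCm38 (mm10) as the build; the gene identifiers in the table are those of the C57BL/6NJ annotation. The deposited p-value and q-value columns were not used, because the sources used here do not say which groups they compare. FPKM values carry no counts, and among 66 pairs of libraries low values showed no whole-read steps (the fullest bin held at most 4.32% of genes), so the read depth is unknown and no counting error is given. No library pair held identical values.

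Genes were kept where 3 or more libraries reached 1 FPKM, which left 11548, and log2(FPKM + 1) was fitted with limma 3.58.1 in R 4.3.3 (variance trend, 4 arms in 1 fit, two-sided, 8 residual degrees of freedom, no replicate block). Fold changes on this scale understate the change of low genes. Adjusted p-values are Benjamini-Hochberg within a comparison, over all tested genes. The libraries are labelled as independent biological replicates of 1 cell line, so the p-values set each difference between arms against the spread between cultures, pooled over the 4 arms. Without a replicate block, that spread takes in any difference shared by libraries of the same number. Replicate numbers are shared between the arms, and no label says what a number marks. Same-numbered libraries deviated together, with a correlation of their deviations over 0.1 in all 3 pairs of RSPO2 and Control (0.311 to 0.631), of BMP2+RSPO2 and Control and of BMP2+RSPO2 and BMP2, but not in 1 pair of BMP2 and Control (0.079) and 1 of BMP2+RSPO2 and RSPO2 (−0.124). The numbers were therefore taken to pair the libraries in the first 3 of these comparisons, and the block's values stand beside the results they change. The script was tested on simulated data. Alternatives were a pseudocount of 0.1, no filter, a filter of 5 FPKM, quantile normalization, median-of-ratios scaling, a replicate block, each library left out in turn, and replicates 2 and 3 alone. All members and the partner genes called in any comparison are named. The members and gene lists were chosen with earlier results of these data known, so neither is independent evidence. Promoter windows came from RefSeq (GRCm38.p6), matched by symbol; those of Fbn2, Eln, Mfap4 and Mfap5 were not used here. The marker genes Bglap, Tnmd and Lyz2 were not analysed here. Figures were drawn with matplotlib 3.10.9.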

Additional observations from a re-analysis of the deposited data

Results flagged for a closer look

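The log2 change of Fbln5 with RSPO2 differed between cells with BMP2 and cells without it: the interaction was −1.51 (SE 0.228, limma adjusted p = 0.0308), from a change of −1.01 in BMP2+RSPO2 against BMP2 and of 0.50 in RSPO2 against Control. All 3 BMP2+RSPO2 libraries lay below all 3 BMP2 libraries, a separation whose share over all tested genes is not given here. All 3 RSPO2 libraries lay above all 3 Control libraries, and these arms did not overlap for 9.33% of all tested genes. The call was lost in 8 of the 12 fits that left out 1 library. Limma called 34 of all tested genes in this interaction, and the smooth muscle marker Acta2 was also among them (−1.22, adjusted p = 0.0308). The part of Acta2 in the Fbln5 result was not tested. With 3 libraries in an arm, single libraries were not tested for distance from the others.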

How the results depend on the processing

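Of 786 log2 changes of the members under the alternatives, 721 kept their direction and their side of the threshold, 43 lost a call, 17 gained one and 5 changed sign, all 5 without a call: Mfap4 in BMP2+RSPO2 against BMP2 (0.14 under quantile normalization), Fbln2 in the same comparison (−0.0505 to 0.111 over the fits without 1 library, below 0 without BMP2+RSPO2 replicate 2 or 3 or BMP2 replicate 1) and the Fbln2 interaction (0.0176 under median-of-ratios scaling). The cause was not tested. Of 397 values of the called partners, 339 kept their call and 58 lost it.

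The number of members called was 0 in RSPO2 against Control but 1 with the replicate block and 1 with replicates 2 and 3 alone. In BMP2+RSPO2 against BMP2 it was 3 but 1 under quantile normalization and 1 under median-of-ratios scaling. In the interaction it was 1 but 0 without a filter and 0 under median-of-ratios scaling, and 4 with replicates 2 and 3 alone. Leaving out 1 library gave 5 to 7 in BMP2+RSPO2 against Control, 2 to 5 in BMP2 against Control, 0 to 1 in RSPO2 against Control, 0 to 3 in BMP2+RSPO2 against BMP2, 6 to 7 in BMP2+RSPO2 against RSPO2 and 0 to 2 in the interaction. Without a filter Eln entered the fit and was called lower in BMP2+RSPO2 against Control (adjusted p = 0.0373), on values of 0.21 FPKM or less.

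Over all genes, leaving out 1 library moved the calls from 2656 to between 1595 and 2758 in BMP2+RSPO2 against Control, from 175 to between 65 and 403 in BMP2 against Control, from 9 to between 0 and 21 in RSPO2 against Control, from 506 to between 60 and 709 in BMP2+RSPO2 against BMP2, from 3015 to between 1847 and 3058 in BMP2+RSPO2 against RSPO2 and from 34 to between 0 and 187 in the interaction. Quantile normalization and median-of-ratios scaling gave 1626 and 1692, 261 and 276, 1825 and 1849, and 12 and 4 calls in BMP2+RSPO2 against Control, BMP2, RSPO2 and in the interaction. Under median-of-ratios scaling the split in BMP2+RSPO2 against BMP2 was 144 higher and 132 lower (74 and 432 as deposited), that against RSPO2 893 and 956 (499 and 2516), and that of the interaction 1 and 3 (1 and 33). RSPO2 against Control had 0 calls with a pseudocount of 0.1 or a filter of 5 FPKM and 5 under quantile normalization, and BMP2+RSPO2 against BMP2 had 306 without a filter. Replicates 2 and 3 alone gave 3994, 963, 195, 2512 and 1109 calls in BMP2+RSPO2, BMP2 and RSPO2 against Control, in BMP2+RSPO2 against BMP2 and in the interaction.

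Of 12 libraries, 9 correlated best with their own replicate number. With the replicate block the members called were 6, 5, 1, 3, 6 and 1 in the 6 comparisons, with Fbn1 (adjusted p = 0.0468) added in RSPO2 against Control and Fbln2 (adjusted p = 0.0262) in BMP2 against Control. Calls over all genes were then 3897 in BMP2+RSPO2 against Control, 329 in BMP2 against Control and 26 in RSPO2 against Control. They were 1710 in BMP2+RSPO2 against BMP2, 4159 in BMP2+RSPO2 against RSPO2 and 91 in the interaction. The block changed no other call of a member. Precision is limited by 3 libraries per arm, by an unknown depth and, for Mfap4, Eln, Mfap2 and Fbln7, by levels near or under 1 FPKM. The same holds for Fbn1 in the arms with BMP2, where it read 0.68 to 1.17 FPKM.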

Other observations

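The partner genes Itga8 and Loxl1 were the 2 with an unadjusted p under 0.05 in RSPO2 against Control, both higher with RSPO2, and neither was called; 3.62% of all tested genes passed that p. Itga8 read 9.20, 8.56 and 10.2 FPKM in RSPO2 and 8.36, 5.38 and 5.23 FPKM in Control (log2 change 0.52, limma adjusted p = 1). Loxl1 read 8.13, 9.89 and 9.64 FPKM in RSPO2 and 5.45, 4.97 and 4.64 FPKM in Control (0.76, adjusted p = 1). The RSPO2 libraries of both genes lay above all their Control libraries, which is no separate result, since both genes were chosen by their p in this comparison; RSPO2 and Control libraries did not overlap for 9.33% of all tested genes. Where BMP2 was present the values leaned the other way. Itga8 read 0.65, 0.37 and 0.34 FPKM in BMP2+RSPO2 and 0.84, 1.7 and 1.61 FPKM in BMP2. Loxl1 read 0.65, 2.79 and 3.24 FPKM in BMP2+RSPO2 and 3.25, 3.9 and 5.15 FPKM in BMP2. The Loxl1 arms were thus only just apart, at 3.24 and 3.25 FPKM, and its 0.65 FPKM came from the library that stood apart. The share of all tested genes without overlap between these arms is not given here. The interactions were −1.22 for Itga8 (adjusted p = 0.115) and −1.52 for Loxl1 (adjusted p = 0.183), neither of them past the threshold.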
